A study of Mus musculus with 6 samples.

Results

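The myosin light chains of muscle were followed in satellite cells, the stem cells of skeletal muscle, with and without the histone chaperone gene Hira. The 7 genes were picked by their GENCODE M21 symbols, by a rule that uses no measured value, with earlier results of these data known. They are Myl1 and Mylpf of fast muscle, Myl2 and Myl3 of slow muscle, Myl4 of embryonic muscle, Myl6b, and Mylk2, the kinase that acts on light chains. All 7 were found among the 55536 genes of the count tables.

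RNA-seq was carried out on 3 control and 3 cKO samples. Cells of both groups came from adult male mice, 8 to 12 weeks old, which carried Pax7CreErt2, a tamoxifen-inducible Cre recombinase made where Pax7 is expressed. Control mice were Pax7CreErt2;Hira fl/+, so they too carried a floxed Hira allele, and cKO mice were Pax7CreErt2;Hira fl/fl. This genotype of the controls is given by the study's methods, whereas the sample labels call them WT and give the strain as C57BL/6J. All mice ate a tamoxifen diet for 2 weeks and regular food for 1 week, and their Tibialis anterior muscle was injured with BaCl2. Cells that were CD34+, ITGA7+, CD45-, TER119- and SCA1- were sorted at 5 days post-injury and kept for 48 h in high-serum medium before RNA extraction. The sources do not say whether each RNA sample came from a separate mouse, so the p-values measure the spread between these samples, which may be in part technical.

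A muscle myosin has heavy chains, which carry the motor, and on the neck of each heavy chain 1 essential and 1 regulatory light chain. The light chains stiffen the neck and tune the force and speed of contraction, and phosphorylation of the regulatory chain increases force in fast muscle. Fast, slow and embryonic muscle use different light chain genes, and the slow genes are shared with the ventricle of the heart. Developing and regenerating muscle transiently expresses the embryonic chain before adult isoforms take over.

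The upstream sequences of the most abundant essential chain, the most abundant regulatory chain and a slow chain are shown because these genes moved in opposite directions. RefSeq entries on GRCm38.p6 matched 6 of the 7 members, with Mylk2 not among them. Each line gives the 250 bases before the start of transcription of Myl1 (chr1:66945057-66945306, minus strand), Mylpf (chr7:127211358-127211607, plus strand) and Myl3 (chr9:110763428-110763677, plus strand), with CANNTG (the E-box read by myogenic factors such as MyoD and myogenin) in capitals.
Myl1: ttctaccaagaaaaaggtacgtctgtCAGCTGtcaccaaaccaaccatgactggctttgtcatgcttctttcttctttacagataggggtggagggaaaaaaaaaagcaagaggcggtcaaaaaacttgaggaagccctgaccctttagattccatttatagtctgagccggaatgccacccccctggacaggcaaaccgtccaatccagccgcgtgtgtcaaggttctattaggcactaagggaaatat
Mylpf: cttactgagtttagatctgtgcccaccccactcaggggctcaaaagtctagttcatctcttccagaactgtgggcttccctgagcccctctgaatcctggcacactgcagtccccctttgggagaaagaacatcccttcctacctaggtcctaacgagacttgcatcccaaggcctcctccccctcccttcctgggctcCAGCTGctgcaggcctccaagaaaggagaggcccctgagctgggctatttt
Myl3: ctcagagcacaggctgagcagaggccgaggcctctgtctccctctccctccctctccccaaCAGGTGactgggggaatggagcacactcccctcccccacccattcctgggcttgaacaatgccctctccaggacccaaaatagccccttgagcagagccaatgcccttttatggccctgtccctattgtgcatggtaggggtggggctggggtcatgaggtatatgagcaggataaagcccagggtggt
Each of the 3 windows held 1 CANNTG. In Myl1 and Mylpf it was CAGCTG, at -224 and -51 from the start, while in Myl3 it was another CANNTG at -189. Both entries of Myl2, which like Myl3 was higher in cKO, held 1 CAGCTG each. Members that fell and a member that rose thus held CAGCTG. Matches were searched on both strands, from 250 bases before to 50 bases after the start, so beyond the printed bases. Of all 32817 RefSeq promoters, 72.3% held a CANNTG and 16.3% a CAGCTG, which is a subset of CANNTG. Myl3 also held a CArG box, the motif of serum response factor, at -85, and 1.63% of the promoters held that motif. The MEF2 site was found in none of the members' windows and in 3.19% of all. The entry of Myl4 lies at its most upstream annotated start and held no CANNTG. These matches describe the letters of the windows.

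Total counts ran from 47944477 to 63323577 per sample. The 7 genes took 0.440% to 0.467% of the counts in control and 0.350% to 0.425% in cKO. Hira itself was counted 375, 348 and 341 times in control and 161, 293 and 272 times in cKO (log2 fold change -0.43 ± 0.12, ± standard error; adjusted p = 0.0237 with edgeR). All cKO samples lay below the control samples, but counts remained in each of them. Without control replicate 1 the adjusted p for Hira was 0.104. Gm28539 covers 44.7% of the exonic bases of Hira on the same strand, so reads of these genes cannot be separated there. Among genes of satellite cells and myoblasts, which include Pax7, Myod1 and Myog, 6 of 7 fell in cKO and 0 rose, and their summed level was 6902.1 to 7047.9 CPM (read counts relative to the library total) in control and 6126.4 to 6592.1 in cKO.

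Of the 7 members, 6 differed between cKO and control by the quasi-likelihood test of edgeR (adjusted p under 0.05): 4 were lower and 2 were higher. Over all 22404 genes tested, 15.8% differed, 6.46% being lower and 9.38% higher. Both fast light chains, the embryonic chain and the kinase fell: Myl1 decreased by 12%, Myl4 decreased by 21.9% and the other 2 lay between them. In contrast, the slow chains Myl2 and Myl3, which were barely present, rose 1.87-fold and 1.69-fold. Myl6b did not pass the threshold. The CPM values of the groups did not overlap for 6 of 7 members, against 31.4% of all genes tested. The median log2 fold change was -0.18 over the members and -0.0011 over all genes tested.

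**Figure D1:**
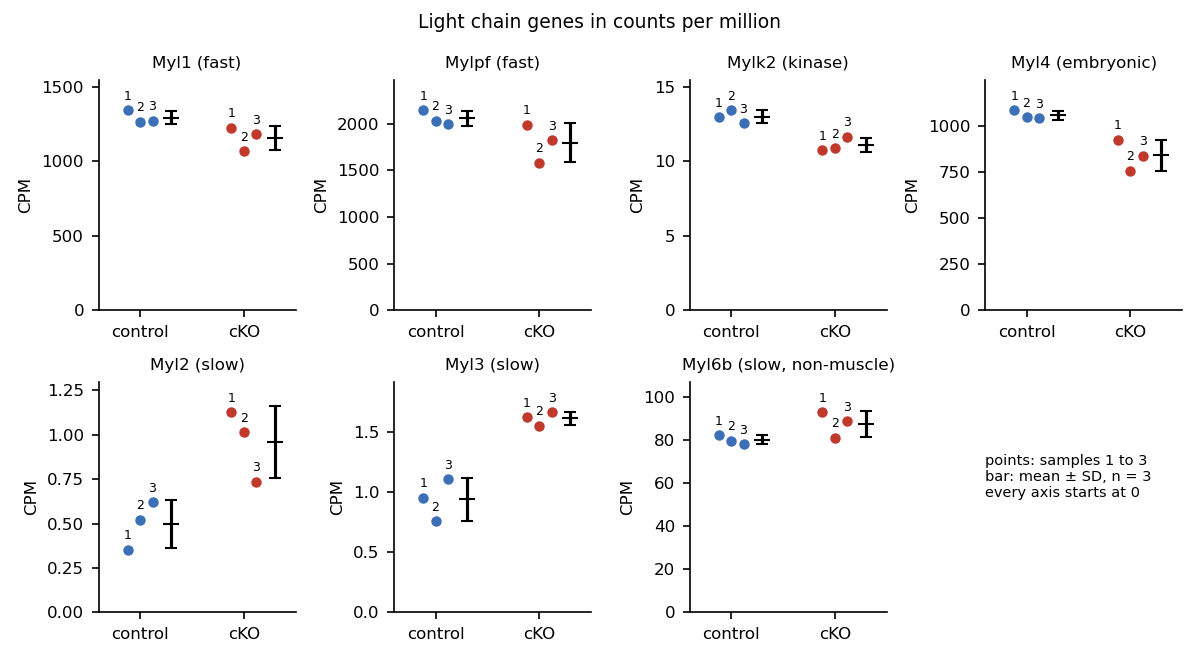
Level of each light chain gene in CPM (vertical axes, starting at 0) in the 3 control and 3 cKO samples, numbered 1 to 3, with the mean ± SD (n = 3) beside them. The fast, kinase and embryonic genes lie lower in cKO without overlap, Myl2 and Myl3 lie higher without overlap but stay at or under 1.67 CPM in every sample, and Myl6b overlaps.

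Myl1 encodes the essential chain of fast muscle, as a long and a short protein made from separate promoters. Gene ENSMUSG00000061816 lies at chr1:66924295-66945404 of mm10 on the minus strand, the window shown above being the start that RefSeq lists. It had 1342.9, 1263.3 and 1271.6 CPM in the control samples and 1223.2, 1065.8 and 1179.8 CPM in the cKO samples. No cKO sample reached the lowest control, with cKO replicate 2 the lowest. The means were 1292.6 ± 43.7 and 1156.3 ± 81.3 CPM (SD, n = 3), which is -0.18 ± 0.05 as log2 fold change ± standard error (adjusted p = 0.0116). Without control replicate 1 the adjusted p was 0.0559.

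Mylpf encodes the regulatory chain of fast muscle, which Mylk2 phosphorylates. The gene (ENSMUSG00000030672) lies at chr7:127208890-127214298 on the plus strand. Its level was 2148.0, 2033.1 and 1998.8 CPM in control and 1990.4, 1580.4 and 1824.0 CPM in cKO. The groups came close to each other, since cKO replicate 1 was just below control replicate 3, and cKO replicate 2 stood apart as the lowest. On the log2 scale the change was -0.22 ± 0.06 (± standard error, adjusted p = 0.0242). This call was the least stable of the 6: the adjusted p was 0.157 with DESeq2, and between 0.0521 and 0.0897 without any 1 of control replicates 1, 2 and 3 or cKO replicate 3. Without cKO replicate 2 the log2 fold change was -0.13, the smallest seen, and the call held.

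Mylk2 encodes the skeletal muscle light chain kinase, a calmodulin-dependent enzyme. It lies at chr2:152911352-152923068 (ENSMUSG00000027470, plus strand). It was measured at 12.96, 13.44 and 12.57 CPM in the control samples and at 10.76, 10.89 and 11.64 CPM in the cKO samples. Here cKO replicate 3 was the highest of its group and still below all controls. The change of -0.25 ± 0.06 on the log2 scale (adjusted p = 0.00707) passed the threshold without each sample in turn.

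Myl4 encodes the essential chain of embryonic skeletal muscle and of the adult atrium. The gene (ENSMUSG00000061086) is at chr11:104550663-104595753 on the plus strand. The control samples held 1086.2, 1048.3 and 1040.4 CPM and the cKO samples 926.1, 757.3 and 837.5 CPM. The groups did not overlap, and cKO replicate 2 was again the lowest sample. Myl4 had the largest decrease of the members in relative terms, at -0.36 ± 0.06 on the log2 scale (± standard error, adjusted p = 0.000296). Omitting any 1 sample gave -0.29 to -0.43, and all 6 of these fits called Myl4.

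Myl4 also fell relative to Myl1. There were 80.89, 82.98 and 81.82 Myl4 counts per 100 Myl1 counts in the control samples and 75.71, 71.06 and 70.98 in the cKO samples. These ranges did not overlap, and the mean difference of -9.31 had p = 0.1 in an exact two-sided permutation test, the smallest that 3 against 3 samples allow. Mylpf counts per 100 Myl1 counts were 159.4 ± 1.95 in control and 155.2 ± 7.24 in cKO (SD, n = 3), with overlapping samples (exact permutation p = 0.5).

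Myl2 is the regulatory chain of slow muscle and the ventricle. It lies at chr5:122100951-122113472 (ENSMUSG00000013936, plus strand), and both RefSeq starts lie upstream of this interval. It was counted at a low level, its control counts being 20, 33 and 38 and its cKO counts 54, 60 and 41. As CPM these were 0.354, 0.521 and 0.619 against 1.13, 1.01 and 0.734. All cKO samples were higher, although cKO replicate 3 was close to control replicate 3. In the edgeR fit Myl2 changed by 0.90 ± 0.24 (log2 fold change ± standard error, adjusted p = 0.0163). When control replicate 1, the lowest, was left out, the change was 0.72 and the adjusted p 0.0757.

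Myl3, the essential chain of the same muscle types, behaved alike in direction. The gene (ENSMUSG00000059741) is at chr9:110741861-110769798 on the plus strand and had 54, 48 and 68 counts in control and 78, 92 and 93 counts in cKO. In CPM the control samples were at 0.955, 0.758 and 1.11 and the cKO samples at 1.63, 1.56 and 1.67. The cKO samples lay close together and above each control. As a log2 fold change the rise was 0.76 ± 0.16 (± standard error, adjusted p = 0.00445), and it passed the threshold without each sample in turn. Antisense genes cover a small part of the exons of both slow chains: Ccdc63, with 6 to 17 counts, overlaps 3.08% of the exonic bases of Myl2, and Pth1r, with 34 to 72 counts, overlaps 4.65% of those of Myl3. The strand setting of the counting is not given in the sources used here, so reads of the overlaps cannot be assigned.

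Because Myl2 and Myl3 are also chains of the ventricle, heart markers were read beside them. Of 8 cardiomyocyte markers only 2 had enough counts to be tested, of which 1, Tbx20, rose, and their summed level was 0.902 to 1.25 CPM in control and 1.74 to 1.98 CPM in cKO. Myl7, the regulatory chain of the atrium, was at 0 counts in all 6 samples, which allows up to 0.0474 to 0.0626 CPM per sample at 3 counts, and Nppa and Tbx5 had at most 1 count in any sample. The part of heart-type expression in the rise of Myl2 and Myl3 was not tested.

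Myl6b encodes an essential chain found in slow muscle and in non-muscle tissue. Its gene (ENSMUSG00000039824, chr10:128494157-128498685, minus strand) had 82.23, 79.7 and 78.05 CPM in control and 92.82, 81.03 and 88.77 CPM in cKO. The groups overlapped, because cKO replicate 2 lay among the controls. The difference of 0.11 ± 0.05 (log2 fold change ± standard error) had an adjusted p of 0.147. Leaving out cKO replicate 2 gave 0.16 and an adjusted p of 0.00536.

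**Figure D2:**
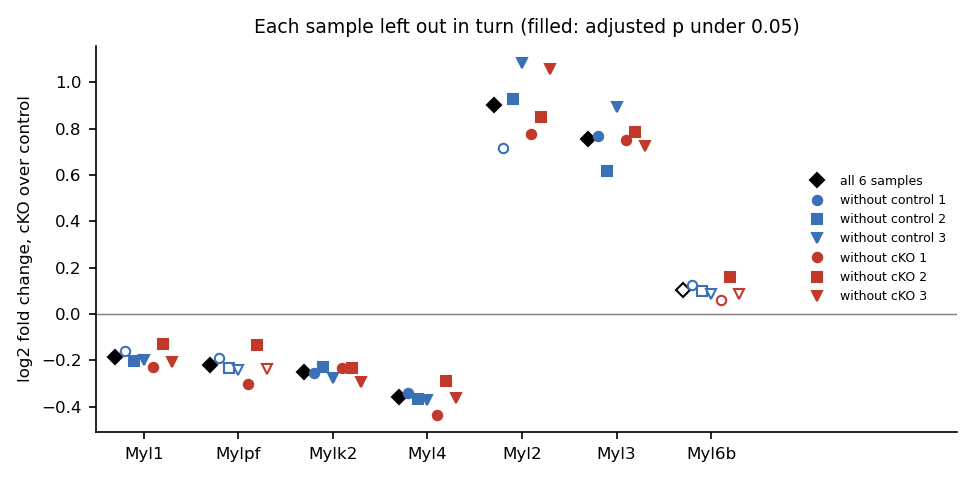
The log2 fold change of cKO over control (vertical axis) for each light chain gene, with all 6 samples (black diamond) and without each sample in turn (blue, a control left out; red, a cKO sample left out). Filled symbols have an adjusted p under 0.05 in edgeR. No gene changes direction, Mylk2, Myl4 and Myl3 are filled throughout, and Mylpf is open in 4 of its 6 left-out fits.

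To compare levels between genes, CPM was divided by the number of positions (per 1000) at which an unspliced 75-base read can start inside the exons of a gene, since the aligner used did not split reads over introns. In control the order was Mylpf with 5435.2 ± 206.2, Myl1 with 966.8 ± 32.7, Myl4 with 273.1 ± 6.31, Myl6b with 51.98 ± 1.37 and Mylk2 with 6.29 ± 0.210 CPM per 1000 read starts (SD, n = 3). Myl3 with 0.652 ± 0.122 and Myl2 with 0.484 ± 0.131 were lowest, and their samples overlapped, so the order of these 2 is not resolved. The distances depend on the exons counted: with the exons of CCDS transcripts only, Myl1 stood at 2000.9 ± 67.7 and Myl4 at 1796.8 ± 41.5, in the same order of genes. On the first scale the slow heavy chain Myh7 had 73.28 ± 0.852 in control and 105.2 ± 5.31 in cKO, while Myl2 had 0.932 ± 0.196 and Myl3 1.12 ± 0.0388 in cKO. Myl2 and Myl3 were far below the slow heavy chain in these cells in both groups. Myl6b, which is also found in slow muscle, was nearer to it, with 51.98 ± 1.37 in control and 56.88 ± 3.89 in cKO. With CCDS exons Myl6b stood above Myh7 in control (140.3 ± 3.69 against 126.9 ± 1.475) and below it in cKO (153.6 ± 10.5 against 182.1 ± 9.19). The order of Myl6b and Myh7 thus rests on the exons counted.

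On the same scale, isoform shares were formed within the essential chains (Myl1, Myl3, Myl4 and Myl6b) and the regulatory chains (Mylpf and Myl2). Myl1 made up 75.02%, 74.53% and 74.83% of essential chains in control and 75.28%, 76.19% and 76.24% in cKO. Myl4 made up 20.94%, 21.34% and 21.12% in control and 19.67%, 18.68% and 18.67% in cKO. The embryonic share was lower in each cKO sample and the fast share higher, although Myl1 itself fell in CPM. Shares of a set add up to the whole, so they are not independent, and a fall of Myl4 raises the shares of the others.
The share of Myl6b was 3.99%, 4.09% and 3.99% in control and 4.96%, 5.03% and 4.98% in cKO, so its groups separated as a share although they overlapped as CPM. Myl3 stayed a trace, at 0.0505% ± 0.00952 of essential chains in control and 0.0986% ± 0.00524 in cKO (SD, n = 3), as did Myl2, at 0.00898% ± 0.00270 and 0.0198% ± 0.00451 of regulatory chains. The mean differences, cKO minus control, were 1.11 percentage points for Myl1, -2.13 for Myl4, 0.971 for Myl6b, 0.0481 for Myl3 and 0.0108 for Myl2, each with p = 0.1 in an exact two-sided permutation test, the smallest possible here. With CCDS exons the Myl4 share was 45.6% in control and 42.3% in cKO, so its size rests on the length used while its direction did not.

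**Figure D3:**
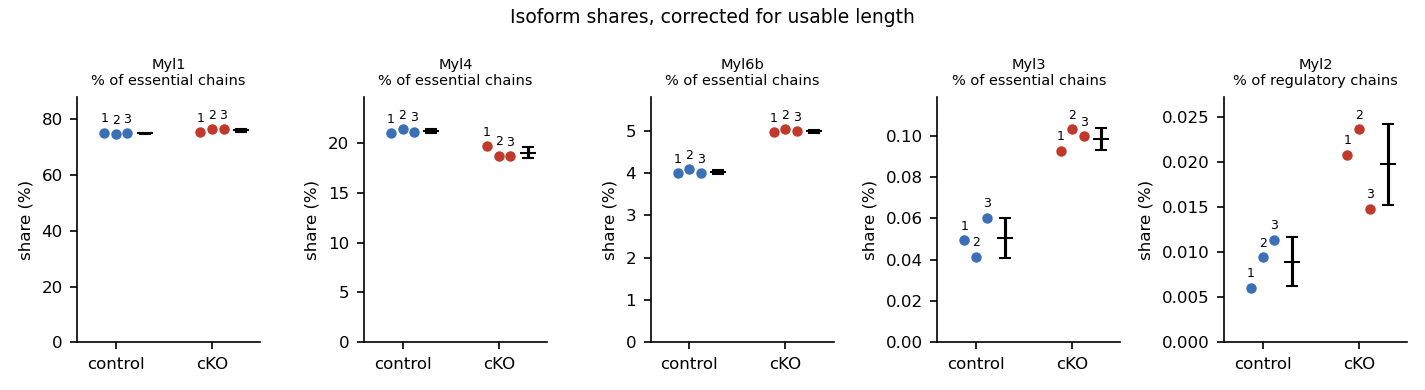
Share in percent (vertical axes, each starting at 0) of Myl1, Myl4, Myl6b and Myl3 among essential chains and of Myl2 among regulatory chains, after correction for usable read starts, in 3 control and 3 cKO samples with the mean ± SD (n = 3). The groups do not overlap in any panel, and the shares of Myl3 and Myl2 are well under 1% in both groups.

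Myl1 has a processed pseudogene, Mylf-ps (ENSMUSG00000113178), at chr12:101221997-101222417 on the minus strand, which was singled out after its counts were seen. Control samples put 33180, 34819 and 34053 counts on it, and cKO samples 26527, 27835 and 29542. Its 421 bases align to the Myl1 transcript of 1082 bp, the longest in GENCODE, with 3 differences, an identity of 99.3%. The alignment spans 3 of the 6 exon junctions of that transcript, and a read over such a junction can be placed unbroken on the pseudogene but not on the Myl1 gene. A stretch of 150 aligned bases that spans 2 junctions, after its bases 47 and 125, is printed from the Myl1 transcript (bases 652 to 801) and from Mylf-ps (chr12:101221997-101222146, minus strand), with the 1 base that differs in capitals.
Myl1: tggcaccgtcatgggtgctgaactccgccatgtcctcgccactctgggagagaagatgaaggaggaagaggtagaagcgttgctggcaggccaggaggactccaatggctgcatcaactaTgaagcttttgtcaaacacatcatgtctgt
Mylf-ps: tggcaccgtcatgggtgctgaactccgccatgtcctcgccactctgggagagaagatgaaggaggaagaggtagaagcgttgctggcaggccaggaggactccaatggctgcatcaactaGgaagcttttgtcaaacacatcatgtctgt
Of the 1008 windows of 75 bases in the transcript, 367 (36.4%) cross a junction. Of these 367, 173 (47.1%) match Mylf-ps with at most 3 mismatches, 93 of them exactly. Over all 1008 windows 347 match it in this way, so windows that cross no junction match too, and their reads fit both genes. Mylf-ps held 43.69, 43.52 and 43.62 counts per 100 Myl1 counts in the control samples and 45.23, 44.15 and 44.85 in the cKO samples. The counts of both genes moved together over the samples, and the ratio was slightly higher in each cKO sample (exact permutation p = 0.1). Mylf-ps alone changed by -0.15 ± 0.05 (log2 fold change ± standard error, adjusted p = 0.0609), and with its counts added to Myl1 the log2 fold change of Myl1 was -0.17 (adjusted p = 0.0202).

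**Figure D4:**
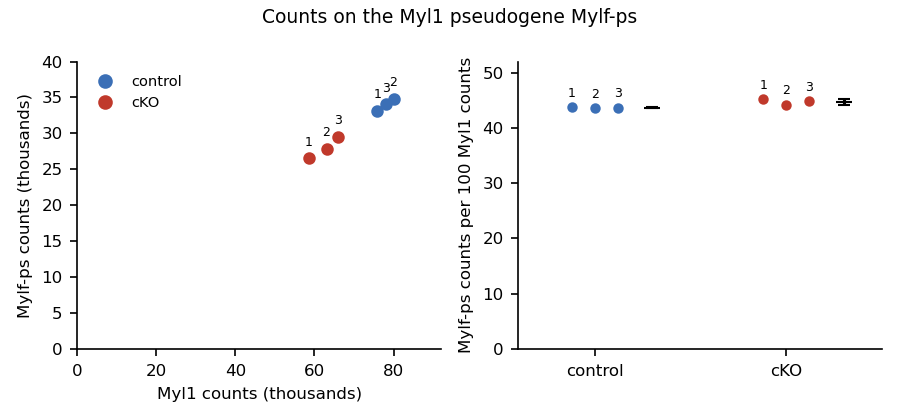
Counts on the pseudogene Mylf-ps against counts on Myl1, with both axes in units of 1000 counts, for 3 control and 3 cKO samples (left), and Mylf-ps counts per 100 Myl1 counts by group with the mean ± SD, n = 3 (right). All 6 samples lie along a line, at 43.52 to 45.23 Mylf-ps counts per 100 Myl1 counts.

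Of 7 other light chain genes, most of them of smooth muscle and non-muscle cells, 4 could be tested: 2 rose, 0 fell and 2 did not pass the threshold, with a median log2 fold change of 0.05. Myl9, the regulatory chain of smooth muscle, rose from 239.7 ± 3.37 to 318.3 ± 8.81 CPM (SD, n = 3), 0.39 ± 0.03 on the log2 scale (± standard error, adjusted p = 3.1e-07). Myl6, the essential chain of smooth muscle and non-muscle myosin, rose by 0.16 on the log2 scale (adjusted p = 0.00152). The non-muscle regulatory chains Myl12a and Myl12b, which share part of their sequence with each other, had log2 fold changes of -0.06 and -0.15 (adjusted p = 0.157 and 0.159). The cKO samples of both lay below their controls without overlap. Other entries cover 13.8% of the exonic bases of Myl12a and 26.7% of those of Myl12b on the same strand, so reads there cannot be separated. A further entry named Myl12b, whose exons these genes cover in full, was not used. Myl10 had at most 4 counts in a sample, and Myl5 has no entry in the annotation used.

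The enzymes that act on regulatory chains and calmodulin, which activates the kinases, numbered 12, of which 11 were tested. Of these, 5 rose, 1 fell and 5 did not pass, with a median log2 fold change of 0.08. Mylk, the kinase of smooth muscle and non-muscle cells, rose from 16.85 ± 0.860 to 26.56 ± 1.01 CPM (log2 fold change 0.63, adjusted p = 3.1e-07), in the direction opposite to Mylk2. Ppp1r14a, an inhibitor of myosin light chain phosphatase known from smooth muscle, rose by 0.91 on the log2 scale (adjusted p = 2.0e-05) from a low level of 1.83 CPM. Mylk4, a related kinase, fell with Mylk2 (log2 fold change -0.25, adjusted p = 0.00663). The others that rose were Ppp1r12c, a phosphatase targeting subunit, and the calmodulin genes Calm2 and Calm3, by 0.19, 0.18 and 0.16 on the log2 scale.

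Among 9 sarcomeric myosin heavy chains, all tested, 5 fell, 3 rose and 1 did not pass, with a median log2 fold change of -0.17. The direction again split by kind of isoform. The fast chains Myh1 (-0.21) and Myh2 (-0.36) fell, as did the embryonic chain Myh3 (-0.17), the perinatal chain Myh8 (-0.17) and Myh13 (-0.18), while the fast chain Myh4 had -0.17 with an adjusted p of 0.107. The slow and cardiac chains Myh7 (0.50), Myh6 (0.53) and Myh7b (0.65) rose on this log2 scale. Myh7 went from 435.9, 430.5 and 425.9 CPM in control to 640.9, 582.8 and 631.5 CPM in cKO. Myh6 and Myh7, and likewise the fast chains among themselves, share 75-base windows, so reads of these pairs are uncertain. Antisense genes also cover 13.3% of the exonic bases of Myh7 and 8.11% of those of Myh1. With the strand setting not given, reads there cannot be assigned.

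**Figure D5:**
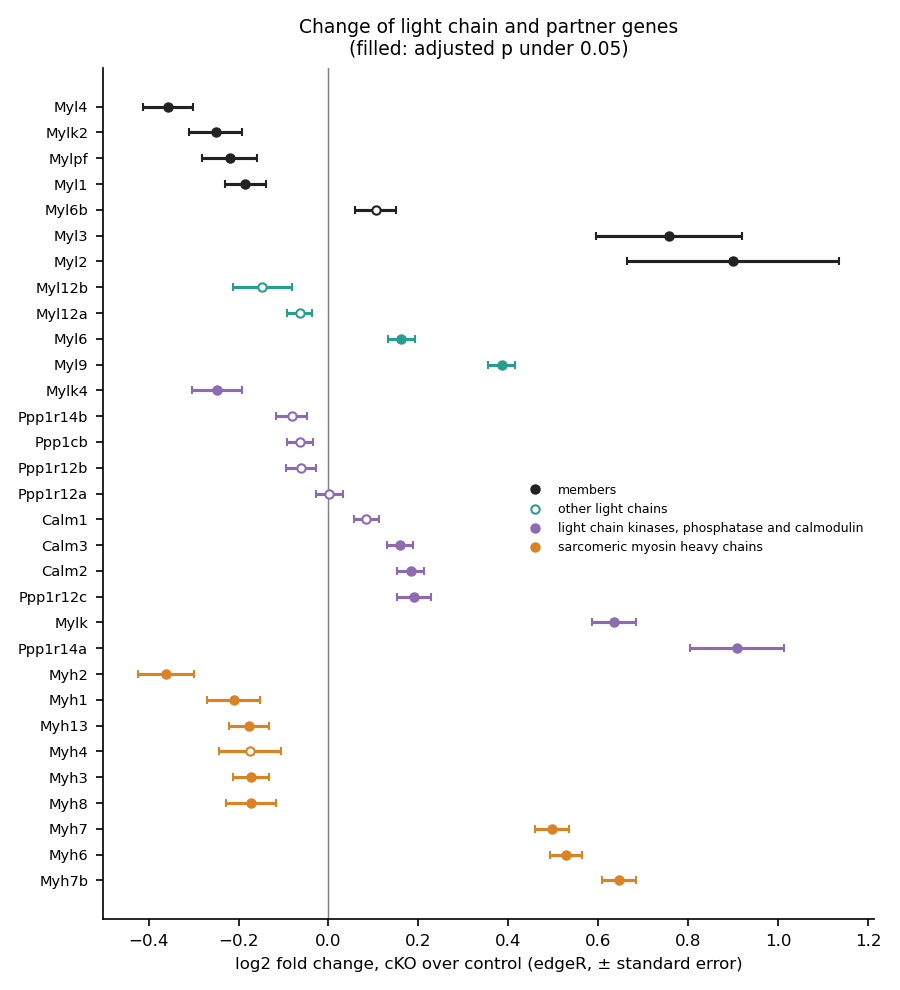
The log2 fold change of cKO over control (horizontal axis) ± standard error from edgeR for the tested members (black), other light chains (green), light chain kinases, phosphatase and calmodulin (purple) and sarcomeric heavy chains (orange). Filled points have an adjusted p under 0.05. Slow and cardiac genes of both chains (Myl2, Myl3, Myh7, Myh6, Myh7b) lie to the right of 0 and fast and embryonic ones to the left, and Myl9, Mylk and Ppp1r14a lie to the right.

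Markers of other cell types moved with these groups. Smooth muscle and pericyte markers rose in 6 of 7 genes and fell in 1, Notch3, with a summed level of 3170.8 to 3229.1 CPM in control and 3449.6 to 3591.0 CPM in cKO. Macrophage markers rose in 7 of 7 genes (117 to 120 CPM in control, 249 to 293 CPM in cKO), and fibroblast markers rose in 5 of the 5 tested (523 to 549 and 779 to 872 CPM). Col3a1 (means of 393 CPM in control and 461.8 CPM in cKO) and Col1a1 (119.5 and 297.7 CPM) made up most of the fibroblast sum. Endothelial markers rose in 4 of 6 genes (17.2 to 18.3 and 26.6 to 31 CPM). The sort had kept CD34+ and ITGA7+ cells and removed SCA1+ as well as CD45+ cells, SCA1 being a known surface marker of muscle fibroblast progenitors and of many endothelial cells and CD45 of macrophages. No defining marker of these 4 types was at 0 in all samples. The part of these cell types in the changes of the light chains, Myl9, Mylk and Ppp1r14a included, was not tested. In these bulk samples fewer cells of a type and less RNA per cell cannot be told apart, for the fall of the fast and embryonic chains as for the other results.

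Over the 6 samples, the log2 CPM of Myl1, Mylpf and Myl4 varied together (Pearson r = 0.986 for Myl1 with Mylpf, 0.969 for Myl1 with Myl4 and 0.954 for Myl4 with Mylpf). Mylk2 ran opposite to Myl3 (r = -0.922) and Myl2 (r = -0.904). These values include the difference between groups and, with 6 points from shared libraries, are descriptions. Of 8847 protein-coding genes with a mean of at least 10 CPM, those most like each member were Xirp2 and Daam2 for Myl1, Zfp521, Pgm1 and Atp5d for Mylpf, Milr1, Map3k9 and B230219D22Rik for Mylk2, Pdlim3, Mustn1 and Sdhd for Myl4, Gga1, Erp44 and Clic1 for Myl2, Prkci, Gramd1b and Paip1 for Myl3, and Gpx4, Prnp and Patj for Myl6b. Their r lay between 0.991 and 0.9999, and with so many candidates and 6 samples no test was attached to these values.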

How the data were processed

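RNA was measured in 3 control and 3 cKO samples, and the authors deposited raw counts per gene. Per the methods and the labels, reads of 75 bp from 400 ng of ribosomal RNA-depleted RNA (stranded total RNA libraries) were aligned to mm10 with Bowtie2 2.3.4.2 and counted with featureCounts 1.6.3 in Galaxy; the strand setting and the handling of reads that match several genes are not given in the sources used here. Bowtie2 does not split reads over introns, which lowers counts of genes with short exons and lets junction reads align to processed pseudogenes. Pseudogenes of all kinds took 12.04% to 12.28% of the counts. The authors also deposited counts normalized with DESeq2 2.11.40.6 and a table of their own comparison (means, log2 fold changes, test scores and p-values), neither of which was used.

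All gene identifiers matched GENCODE M21, on the build of mm10. Genes kept by filterByExpr were compared with edgeR 4.0.16 (TMM, quasi-likelihood test, only genotype in the model) under R 4.3.3, with Benjamini-Hochberg adjustment over 22404 genes and a threshold of 0.05; the standard error was derived from the F statistic. The test was tried on simulated counts. Replicates had a common biological coefficient of variation of 3.92%, so counting error dominates for Myl2 and Myl3. CPM are counts relative to the sample total, on the usual scale, and log2 CPM used a prior count of 2. Fold changes and percent changes of genes come from the TMM-scaled fit, so they differ slightly from ratios of mean CPM. Shares and ratios were compared with exact two-sided permutation tests, whose smallest p is 0.1. Groups were taken from the labels; no replicates were duplicates of each other. Same-numbered samples did not deviate together, so the numbers were not used as pairs.

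Genes named are the members, Hira, list genes with a mean of at least 10 CPM, an adjusted p under 0.05 or that are the only one of their kind, and the 3 genes most correlated with each member, of which 1 is not reported here. Myl5, Myl10, Myl12b, Nppa, Tbx5, Ccdc63, Pth1r, Gm28539 and Mylf-ps were named after their values were seen. The members, the 3 lists of related genes and the 6 marker lists were chosen with earlier results of these data known. Alternatives were DESeq2 1.42.0, other scalings, no filter, a replicate block, other gene lengths and leaving out each sample. Sequences came from RefSeq (GRCm38.p6) and GENCODE M21 and were searched and aligned in Python 3.11.15 with Biopython 1.88.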

Additional observations from a re-analysis of the deposited data

How the results depend on the processing

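Each log2 fold change of the 7 members kept its direction under every alternative run. RLE size factors, total-count scaling, no filter on low counts and the replicate block each called 6 of the 7 members, and DESeq2 called 5, with Mylpf lost (log2 fold change -0.22, adjusted p = 0.157); the cause was not tested. Leaving out each sample called between 3 and 7 members, the 3 without control replicate 1 being Myl3, Myl4 and Mylk2. The genes called lower in cKO then numbered 917 to 1673 and those called higher 1571 to 2214; the lower counts of 917, 934 and 960 came without control replicates 1, 2 and 3. Total-count scaling gave 2462 higher and 1057 lower genes, against 2101 and 1448 with TMM, but the same number of members. The replicate block, a fit with the replicate number as a term, called 1901 genes higher and 1251 lower. Same-numbered control and cKO samples had correlations of -0.013, -0.0045 and -0.015 in their deviations from the group means. They share no more than a number, and no sample correlated best with its own number. The isoform shares kept their direction under each length, with Mylf-ps counts added to Myl1 and without each sample. Depth limits Myl2 and Myl3, which had 20 to 93 counts per sample. The CCDS length and the addition of Mylf-ps were chosen after seeing the data.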
